A study of Mus musculus with 3 samples.

Results

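Lymphatic endothelial nuclei of the newborn mouse aortic root are described here: 138 nuclei among 14073 kept nuclei of 3 single-nucleus libraries. A kept nucleus had at least 1000 unique molecular identifiers (UMIs, counted RNA molecules) and at most 5% of them from mitochondrial genes. A lymphatic nucleus had at least 3 of the genes Prox1, Mmrn1, Reln, Flt4, Lyve1 and Ccl21a detected, at least 2 UMIs of Prox1 and Mmrn1 together, and under 0.5% of its UMIs from the cardiomyocyte genes Ryr2, Ttn, Myh6 and Tnnt2. They were set against 2718 other endothelial nuclei, which had at least 4 of the 8 genes Pecam1, Cdh5, Ptprb, Tie1, Egfl7, Tek, Emcn and Erg detected and at most 1 UMI of Prox1 and Mmrn1 together. Because these genes chose the nuclei, their levels are given as a description and were not tested.

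The libraries were 3 pools of 1 group, each made from 22 to 24 frozen aortic roots of mice at postnatal day 1, and the assay was the gene expression arm of the 10x Genomics Multiome kit. All animals carried the strain label B6.Cg-Scx<tm1.1(EGFP)Skom, stock RBRC11098, a line with an EGFP change at the tendon and valve gene Scx, and zygosity was not given in the sources used here. Each pool mixed animals, so values of single animals and a control without the EGFP change were not analysed here. The spread between the 3 pools is the only replicate error in what follows.

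Lymphatic endothelium lines the vessels that return tissue fluid, lipids and immune cells to the blood. It is specified from venous endothelium by the homeobox factor Prox1, which acts with the nuclear receptor Nr2f2 and the factor Sox18, and it grows toward the ligand Vegfc through the receptor Flt4 and the co-receptor Nrp2. Capillaries carry Lyve1, a hyaluronan receptor, and Ccl21a, a chemokine that draws dendritic cells, whereas the valves of collecting vessels depend on Foxc2, Gata2 and Itga9.

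The lymphatic nuclei numbered 56, 52 and 30 in pools 1, 2 and 3. They made up 0.792% (Wilson 95% interval 0.610 to 1.03), 1.60% (1.22 to 2.09) and 0.8002% (0.561 to 1.14) of kept nuclei, intervals that cover counting error only. Pool 2 held the highest share, and its interval did not overlap those of the other pools. Without the mitochondrial limit the shares were 0.829% (0.662 to 1.04), 1.22% (0.944 to 1.57) and 0.730% (0.512 to 1.04), and the intervals overlapped. The interval of pool 2 also met that of pool 3 when the highest doublet scores were left out and under both stricter lymphatic rules. Median depth was 7147.5, 6961 and 4224.5 UMIs per lymphatic nucleus against 5377, 5340 and 3694 UMIs per other endothelial nucleus. The median mitochondrial share was also higher in lymphatic nuclei, at 2.36%, 2.13% and 1.56% against 1.30%, 1.61% and 0.993%.

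A few nuclei weighed heavily in the sums. Of the lymphatic nuclei, 5 held more than 30000 UMIs, 3 of them in pool 1 and 2 in pool 2. They gave 25.5% and 25.1% of the lymphatic UMIs of those pools. The largest, with 102223 UMIs, lay in pool 2. Among all lymphatic nuclei, 44 had at least 3 of the 6 smooth muscle genes Myh11, Acta2, Tagln, Mylk, Cnn1 and Lmod1 detected, and their median depth was 12203 UMIs. Fits without nuclei above 30000 UMIs are therefore given beside the counts of genes. In pool 3, a single lymphatic nucleus held 1625 of the 1650 UMIs of the haemoglobin gene Hbb-bs. No more than 3 lymphatic barcodes were also kept in another pool, for any of the 3 pairs of pools.

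The 6 genes of the rule showed how unevenly lymphatic nuclei were sampled. Prox1 was detected in 135 of the 138 nuclei, the receptor gene Flt4 in 119, the secreted glycoprotein gene Reln in 113, Ccl21a in 100, Lyve1 in 88 and the extracellular matrix gene Mmrn1 in 57. Of the 138, 31 had exactly 3 of the 6 genes, 40 had 4, 43 had 5 and 24 had all 6. At the edge of the rule, 18 members had exactly 2 UMIs of Prox1 and Mmrn1, whereas 27 nuclei with at least 3 of the genes had 1 such UMI and were left out. A further 17 had none, 153 had enough Prox1 and Mmrn1 but only 2 genes, and 40 exceeded the limit on cardiomyocyte genes. Of these 40, 10, 10 and 20 lay in pools 1, 2 and 3, with median depths of 12599, 8704 and 92368 UMIs. At least 4 pan-endothelial genes were detected in 5, 5 and 20 of them. Of the members, 130 also had at least 4 of the 8 pan-endothelial genes, and 1 had none of them.

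To compare shares between classes of unequal depth, each nucleus was thinned at random to 1000 UMIs. Prox1 was then found in 73.2%, 59.6% and 63.3% of lymphatic nuclei of pools 1, 2 and 3, and in 3.70% ± 1.09 (SD, n = 3) of other endothelial nuclei. Cardiomyocyte nuclei, a class in which Prox1 is also known to act, stood at 16.8% ± 1.77, and smooth muscle nuclei, which should lack it and serve as the background of free RNA, at 0.575% ± 0.261. Median depth was 4034.5, 3801 and 2748 UMIs in the smooth muscle nuclei of the 3 pools. Ccl21a was found in 37.5%, 65.4% and 46.7% of thinned lymphatic nuclei and in 0.3499% ± 0.414 of smooth muscle nuclei. Both genes are part of the rule, so these shares only describe the nuclei it chose.

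**Figure D1:**
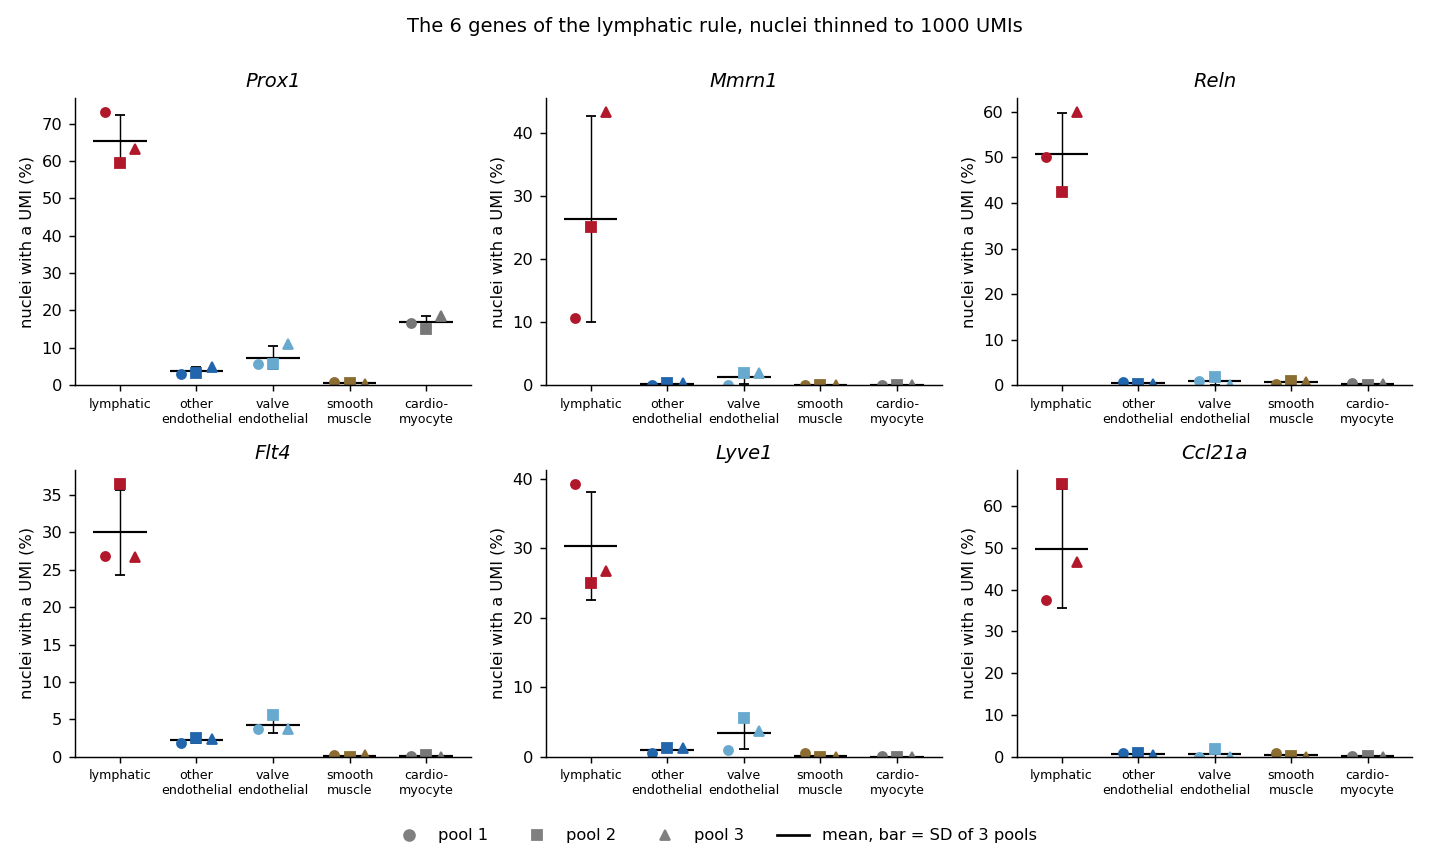
Share of nuclei with at least 1 UMI of each gene of the lymphatic rule after thinning to 1000 UMIs, by class of nuclei; points are pools, lines are means and bars are the SD of 3 pools. Lymphatic nuclei stand highest for all 6 genes, which chose them, and Prox1 also reached 16.8% of cardiomyocyte nuclei.

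Mmrn1 varied most plainly among the pools. Its summed level in lymphatic nuclei was 77.4, 308 and 373 UMIs per 1000000 UMIs of the class in that pool (CPM) in pools 1, 2 and 3, and it was detected in 14 of 56, 22 of 52 and 21 of 30 nuclei. Pool 1 was low by both measures. Lyve1 showed no such spread, with 343, 340 and 290 CPM. Ccl21a reached 2018, 1806 and 1805 CPM, but 10 of the 138 nuclei held 50.2% of its 2606 UMIs, and the largest count was 418 UMIs against a median of 3. The level of Ccl21a therefore rests on few nuclei, and its near-identical copies Ccl21b and Ccl21d were left out of the tests as uncertain.

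Capillary and valve genes occurred in overlapping sets of nuclei. Ccl21a and Lyve1 were both detected in 66 of the 138 lymphatic nuclei and neither in 16. Foxc2, the factor needed for lymphatic valves, was detected in 43 nuclei, of which 25 also had Ccl21a and 18 did not. Of the same 43 nuclei, 23 had Lyve1 and 20 did not. The median depth of nuclei with Foxc2 was 8547 UMIs against 6565.5 for all members, so detection of Foxc2 moved with depth. Nuclei with Ccl21a and nuclei with Lyve1 had median depths of 6491.5 and 6331.5 UMIs. No subtype was defined from these genes.

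Against other endothelial nuclei, summed per pool and tested with edgeR's quasi-likelihood test with pool as a block, 763 of 12695 genes were higher in lymphatic nuclei (6.01% of those tested) and 766 were lower (6.03%) at an adjusted p under 0.05. The median log2 fold change over all tested genes was -0.01. Counts for the gene and marker lists of this comparison are to be read beside these shares over all tested genes. Without nuclei above 30000 UMIs, 887 were higher and 845 lower, and without pool 2 the counts fell to 361 and 329. With 5 comparison nuclei per lymphatic nucleus matched on UMI total, 1232 genes passed, and 1121 of the 1529 genes called in either direction were called again, of 1381 that could be tested. Without the mitochondrial limit 1527 passed and 1351 of the 1529 were called again. Of the 144 listed or named genes called, 140 also passed without nuclei above 30000 UMIs and 112 without pool 2. The lymphatic nuclei of pool 3 gave only 179514 UMIs, against 633346 and 555873 in pools 1 and 2.

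Lymphatic transcription factors outside the rule were mostly higher. Of 16 listed factors 15 were tested, of which 9 rose, 1 fell and 5 did not pass, with a median log2 fold change of 0.86. Nr2f2, the venous and lymphatic nuclear receptor that pairs with Prox1, stood at 261, 275 and 240 CPM in lymphatic nuclei of pools 1, 2 and 3 and at 63.6, 66.0 and 60.8 CPM in other endothelial nuclei. The groups did not overlap and the 3 pools lay close together. The log2 fold change was 2.01 ± 0.12 (SE), with an adjusted p of 6.80e-09.

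Tbx1, a T-box factor of the pharyngeal region that is needed for lymphatic growth, had lymphatic values that lay close together. It stood at 72.6, 77.4 and 72.4 CPM in lymphatic nuclei and at 10.1, 5.81 and 4.61 CPM in other endothelial nuclei. All 3 lymphatic values were far above all others, and the log2 fold change was 3.32 ± 0.28 (adjusted p 3.33e-07). Maf, a bZIP factor, was at 80.5, 103 and 134 CPM in lymphatic nuclei against 22.5, 9.62 and 15.6 CPM, a log2 fold change of 2.63 ± 0.28 (adjusted p 3.56e-06) that ran from 2.24 to 3.31 over 17 alternatives. Nfatc1, the calcineurin-regulated factor of heart valve and lymphatic development, rose by 1.37 ± 0.12 on the log2 scale and Sox18 by 1.36 ± 0.19.

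Foxc2 stood at 33.2, 54.0 and 61.3 CPM in lymphatic nuclei against 19.0, 25.7 and 17.0 CPM. All lymphatic pools were higher, with a log2 fold change of 1.10 ± 0.26 and an adjusted p of 0.00894, but the gene did not pass without pool 2. Its relative Foxc1 fell by 0.73 ± 0.18, a call that was lost without pool 1, without pool 2, with DESeq2 and with comparison nuclei matched on UMI total. Gata2, which acts in lymphatic valves, did not pass, at 63.2, 64.8 and 22.3 CPM against 65.2, 71.8 and 54.8 CPM. The haematopoietic and endothelial factor Hhex did not pass either, with a log2 fold change of 0.29 ± 0.33.

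**Figure D2:**
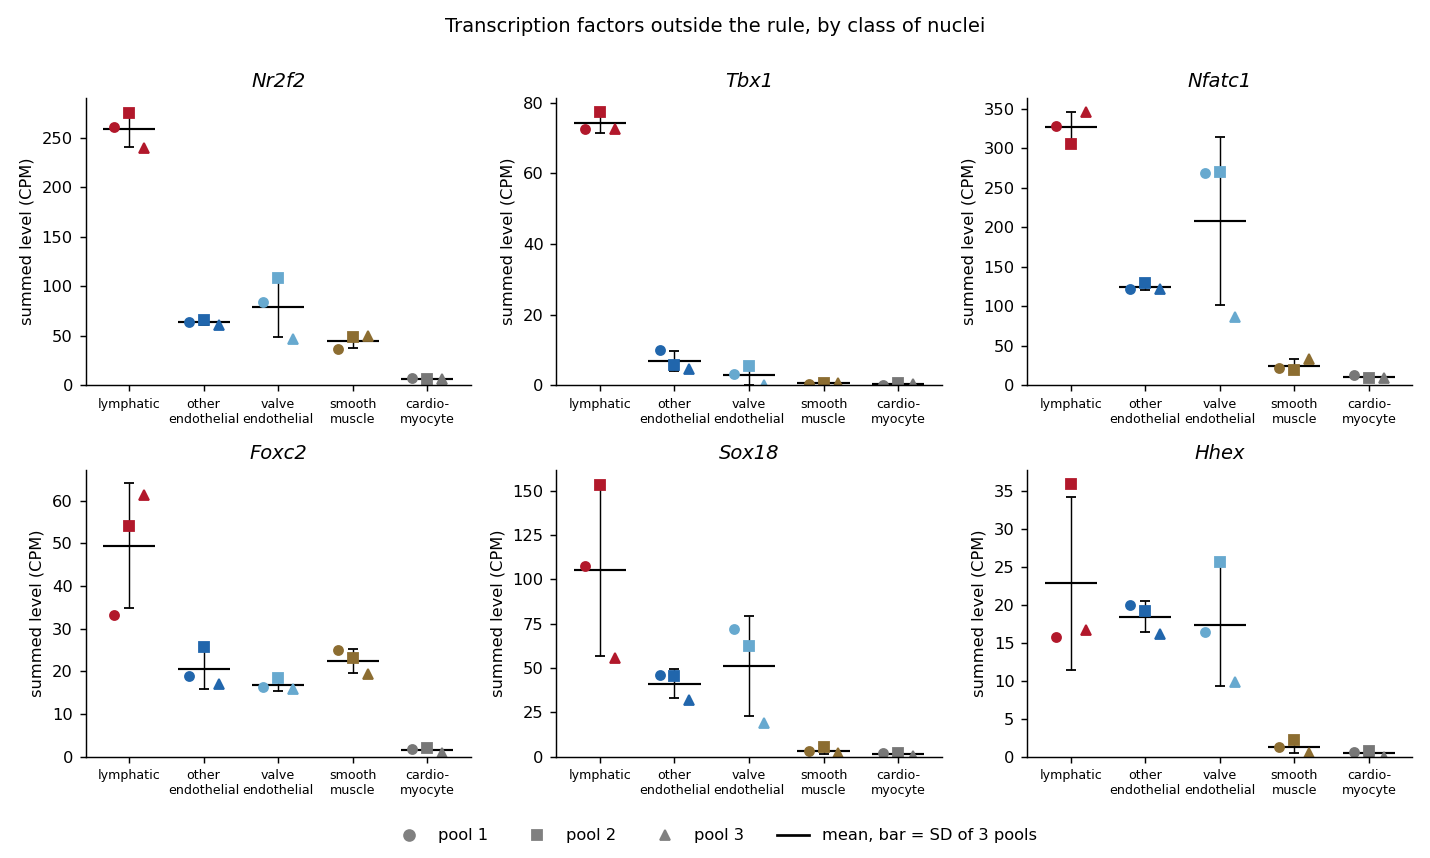
Summed level of 6 transcription factors in CPM by class of nuclei; points are pools, lines are means and bars are the SD of 3 pools. Nr2f2 and Tbx1 were highest in lymphatic nuclei of every pool, whereas the lymphatic and other endothelial values of Hhex overlapped.

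Surface and secreted genes known from lymphatic endothelium rose almost as a whole. Of 19 tested, 17 were higher, none was lower by edgeR or DESeq2 (1 at an unadjusted p under 0.05) and 2, Mrc1 and Ackr4, did not pass, with a median log2 fold change of 2.62. The same 17 had lymphatic pools entirely above the other endothelial pools, against 11.9% of all tested genes. Podoplanin (Pdpn), the mucin-type protein that keeps lymph and blood vessels apart, was at 83.7, 79.2 and 39.0 CPM against 7.80, 9.39 and 5.19 CPM. Pool 3 was lowest in both classes, the groups did not overlap, and the log2 fold change was 3.19 ± 0.26 (adjusted p 1.78e-07).

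Other members of this list differed by more or by less. Lbp, which encodes lipopolysaccharide-binding protein, stood at 276, 304 and 212 CPM against 14.97, 22.1 and 10.7 CPM, a log2 fold change of 4.04 ± 0.16. Thy1, a surface glycoprotein, rose by 4.56 ± 0.31, and the secreted fibrinogen-like gene Fgl2 by 3.07 ± 0.13. The scavenger receptor gene Stab2 was at 9.47, 16.2 and 55.7 CPM and was detected in only 10 of the 138 nuclei. In pool 3 it was detected in 2 nuclei, 1 with 8 UMIs and 1 with 2, so the highest value rests mostly on 1 nucleus. The integrin gene Itga9, needed for valve leaflets of lymphatic vessels, was at 471, 462 and 407 CPM against 345, 284 and 357 CPM. Its log2 fold change of 0.45 ± 0.12 passed (adjusted p 0.0186) but was lost in 5 of 17 alternatives: without pool 1, without pool 2, without the pool block, with DESeq2 and with at least 4 of the 6 lymphatic genes.

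Of 15 genes of the Vegfc pathway tested, 2 rose (Nrp2 and Kdr), 1 fell (Vegfc) and 12 did not pass. Over all tested genes 6.01% were higher and 6.03% lower. The median log2 fold change of the list was -0.00. Without pool 3 the number lower was 2. Nrp2, the co-receptor of Flt4, was at 638, 833 and 902 CPM in lymphatic nuclei against 66.0, 76.9 and 70.6 CPM, a log2 fold change of 3.43 ± 0.12 (adjusted p 1.19e-11). Kdr, the second receptor of this family, was at 224, 362 and 251 CPM against 72.4, 83.0 and 87.1 CPM, a change of 1.78 ± 0.14 (adjusted p 9.05e-08). Neither gene's groups overlapped. Vegfc itself was lower, at 66.3, 57.6 and 145 CPM against 189, 244 and 256 CPM, with a log2 fold change of -1.55 ± 0.18 (adjusted p 1.15e-05). Pool 3 was the highest lymphatic value and still lay below all other endothelial values. The genes for processing of the ligand, Ccbe1 and Adamts3, did not pass, with adjusted p of 0.385 and 0.282.

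Of the angiopoietin pathway, 2 of 7 tested genes were higher, 2 lower and 3 did not pass. Angpt2, a ligand needed for lymphatic remodelling, had a log2 fold change of 1.22 ± 0.31 and Foxo1 one of 0.53 ± 0.12, and both calls were lost without pool 2 and without the pool block, that of Angpt2 also with DESeq2 and with comparison nuclei matched on UMI total. Angpt1 fell by 1.19 ± 0.24, a call lost without pool 2 and with 5 classes in the fit. Of the adrenomedullin pathway, which promotes lymphatic growth and sealing, 2 of 7 rose, 1 fell and 4 did not pass, and over the 17 alternatives 1 to 3 rose and 1 or 2 fell. The receptor gene Calcrl was at 602, 554 and 440 CPM in lymphatic nuclei, below all other endothelial values, and fell by 0.95 ± 0.11. The connexin gene Gja1 was at 262, 149 and 206 CPM against 43.4, 54.3 and 41.2 CPM and rose by 2.12 ± 0.19.

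Genes of lymphatic valves and collecting vessels were higher in 10 of 19 tested, lower in 2 and not passing in 7, with a median log2 fold change of 0.50. Without pool 2 the numbers were 7 higher and 1 lower, and without pool 1 they were 8 and 0. The claudin gene Cldn11 rose by 3.01 ± 0.37 and the planar polarity gene Celsr1 by 2.32 ± 0.22. Celsr1 stood at 71.1, 73.8 and 78.0 CPM in lymphatic nuclei against 14.2, 13.9 and 16.4 CPM. Fibronectin (Fn1), a part of the valve leaflet matrix, did not pass, with a log2 fold change of -0.00 ± 0.10.

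For genes of leukocyte traffic, 4 of 12 tested rose, none fell and 8 did not pass with edgeR. DESeq2 called none lower either, and 2 were lower at an unadjusted p under 0.05. A single gene was called lower without pool 1, without the highest doublet scores and without nuclei above 30000 UMIs. Il7, a cytokine that lymphatic endothelium supplies to T cells and innate lymphoid cells, was at 28.4, 81.0 and 61.3 CPM against 0.821, 1.12 and 1.44 CPM. Every lymphatic pool was far above every other endothelial pool, and the log2 fold change was 5.51 ± 0.41 (adjusted p 7.76e-08). Spns2, the exporter of sphingosine 1-phosphate, was at 97.9, 140 and 83.6 CPM against 23.9, 23.7 and 23.6 CPM, a change of 2.18 ± 0.20 (adjusted p 8.55e-07). The decoy chemokine receptor gene Ackr2 rose by 2.88 ± 0.52 from low counts, and the adhesion gene Vcam1 did not pass.

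Blood endothelial genes were mostly lower. Of 26 tested, 14 fell, 4 rose and 8 did not pass, with a median log2 fold change of -0.61. Over the 17 alternatives 2 to 5 rose and 12 to 14 fell, with the lowest numbers without pool 2, where Podxl and Unc5b no longer passed. Nrp1, the co-receptor that binds Vegfa, was at 339, 318 and 312 CPM in lymphatic nuclei against 1158, 1218 and 1277 CPM in other endothelial nuclei, a log2 fold change of -1.92 ± 0.11 (adjusted p 2.76e-09). Its relative Nrp2, above, moved the other way, and neither gene's groups overlapped. The arterial genes Gja5, Sox17 and Hey2 fell by 2.75 ± 0.25, 2.59 ± 0.32 and 1.66 ± 0.20. Over the 17 alternatives the change of Gja5 ran from -4.35 to -2.46 and that of Hey2 from -2.37 to -1.50. Flt1, a receptor that traps Vegfa, fell by 1.27 ± 0.13 (-1.89 to -0.96 over the alternatives). Plvap, the gene of fenestral diaphragms, did not pass, at 71.1, 133 and 83.6 CPM against 80.7, 130 and 60.6 CPM.

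Genes of endocardium and of flow response fell in 12 of 17 tested, rose in 1 and did not pass in 4, with a median log2 fold change of -1.20. Cytl1 and Rtl4 fell by 2.98 ± 0.18 and 2.73 ± 0.20, with changes from -3.82 to -2.31 and from -4.79 to -2.42 over the 17 alternatives. Bmp6, a ligand of the bone morphogenetic protein family, was at 261, 290 and 139 CPM in lymphatic nuclei against 985, 1058 and 1106 CPM and fell by 2.16 ± 0.16 (-3.06 to -1.84 over the alternatives). Nrg1, the endocardial ligand that acts on myocardium, was at 59.999, 68.4 and 0 CPM against 176, 223 and 360 CPM. Pool 3 had no Nrg1 UMI, where 3 UMIs would have been 16.7 CPM, and DESeq2 did not call the gene. The flow-induced factor Klf4 was the one that rose, by 0.98 ± 0.15 (2 genes rose without pool 3), and Klf2 did not pass, with a log2 fold change of -0.12 ± 0.14.

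Junction genes had 3 higher, 4 lower and 7 not passing of 14 tested, and their median log2 fold change was -0.01, as was that of all genes to 2 decimals. Over the 17 alternatives 2 to 5 were higher and 2 to 4 lower. Cldn5, the main endothelial claudin, rose by 1.57 ± 0.13 and the adhesion gene Nectin2 by 1.72 ± 0.21, whereas Jam2 fell by 1.75 ± 0.19 and Cgnl1, a junction adaptor, by 1.23 ± 0.11. Of 20 basement membrane and anchoring genes, 8 rose, none fell and 12 did not pass with edgeR, and without pool 2 the number higher was 5. None fell with DESeq2, 2 were lower at an unadjusted p under 0.05, and 1 or 2 were called lower under 5 alternatives, among them 1 without nuclei above 30000 UMIs. Lama4, a laminin chain of vessel walls, had a log2 fold change of 1.30 ± 0.10 and the collagen IV chain genes Col4a1 and Col4a2 had changes of 1.01 ± 0.11 each. Lymphatic capillaries are known for a sparse basement membrane, and these values are of RNA in nuclei, not of matrix.

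Guidance genes divided into 5 higher, 9 lower and 7 not passing of 21 tested. Over the 17 alternatives 3 to 6 were higher and 8 or 9 lower, with 3 higher without pool 2, where Plxnd1 and Unc5b no longer passed. Sema3d was at 524, 637 and 629 CPM in lymphatic nuclei against 59.7, 39.1 and 49.0 CPM, a log2 fold change of 3.57 ± 0.16 (adjusted p 1.23e-10), and Sema3a, a ligand that shapes lymphatic valves, rose by 1.73 ± 0.14. Both ligands were higher in every lymphatic pool than in any other endothelial pool. Efna5 fell by 1.65 ± 0.15 and Ntn4, a netrin of basement membranes, by 1.71 ± 0.19. Lipid uptake genes had 2 higher, 5 lower and 5 not passing of 12 tested. Both higher genes, Pparg and Vldlr, no longer passed without pool 2, and Vldlr also not without pool 1, with DESeq2 or with comparison nuclei matched on UMI total. Over the 17 alternatives 2 to 5 were lower, lowest without the pool block. The fatty acid binding genes Fabp4 and Fabp5 fell by 1.21 ± 0.13 and 1.23 ± 0.14, and the regulator Pparg rose by 1.25 ± 0.21.

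**Figure D3:**
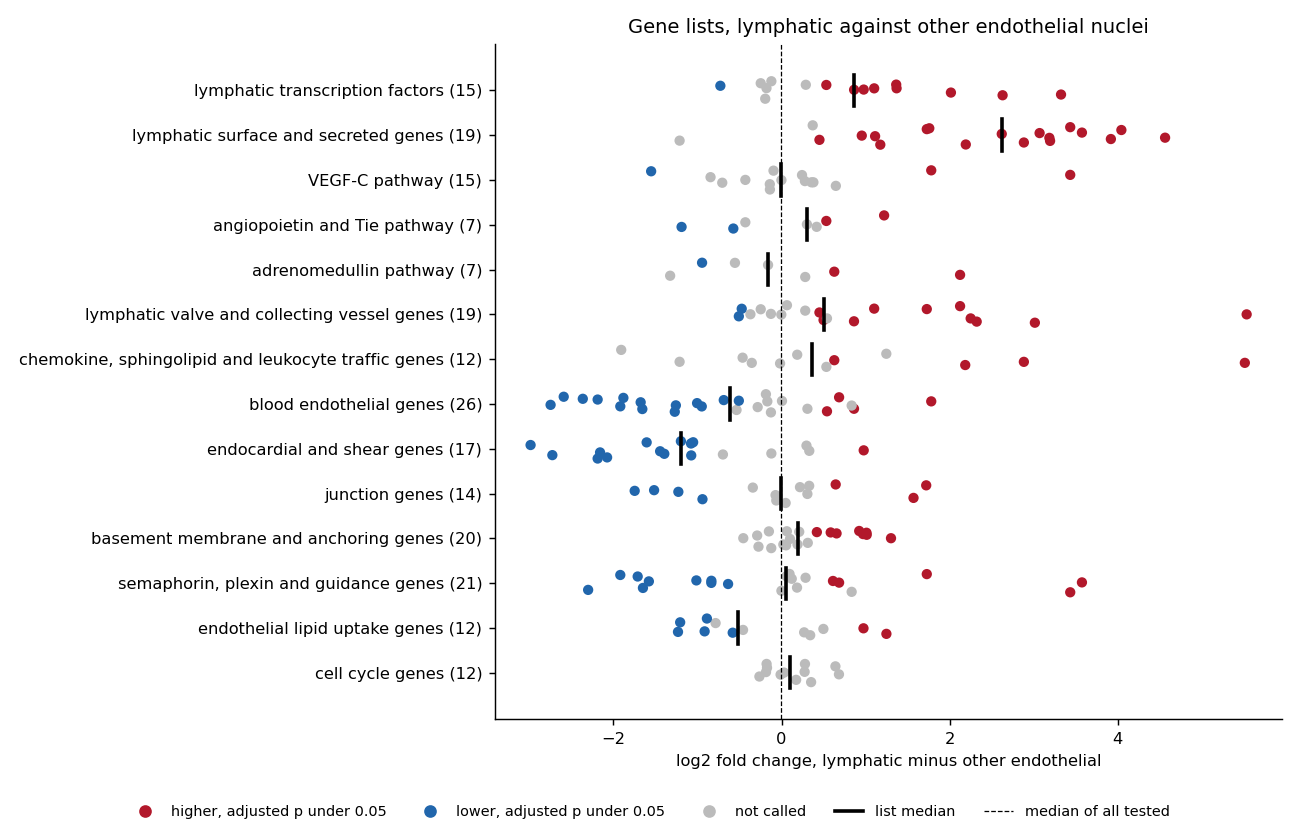
Log2 fold change of each tested gene of 14 lists, lymphatic minus other endothelial nuclei; each point is a gene, black bars are list medians, the dashed line is the median of all tested genes, and the number tested is in brackets. Surface and secreted genes lie furthest to the right (median 2.62) and endocardial and shear genes furthest to the left (median -1.20).

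The genes that differed most, by a rule on size, direction in every pool and level, included several outside these lists. The largest rise was that of Klrb1f, a lectin-like receptor of the natural killer gene family, at 30.0, 108 and 111 CPM in lymphatic nuclei and 0.513, 0.671 and 0.865 CPM in other endothelial nuclei. Pool 1 was the lowest lymphatic value, the groups did not overlap, and the log2 fold change was 6.62 ± 0.41 (adjusted p 7.84e-09). Reads shared with other genes of that family cannot be told apart here. Apba2, an adaptor gene known from synapses, was at 58.4, 72.0 and 195 CPM against 1.33, 1.12 and 0 CPM, a log2 fold change of 6.37 ± 0.47 that ran from 5.61 to 7.40 over the alternatives. Dtx1, a ubiquitin ligase gene of the Notch pathway, was at 134, 162 and 189 CPM against 2.36, 1.79 and 0.865 CPM, with a change of 6.30 ± 0.28 (adjusted p 1.43e-10).

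Voltage-gated sodium channel genes also stood among the 15 largest rises. Scn3a was at 235, 232 and 184 CPM in lymphatic nuclei against 4.62, 2.01 and 5.77 CPM, a log2 fold change of 5.75 ± 0.25 (adjusted p 1.07e-10). Its lymphatic values lay close together, whereas those of Scn1a ran from 12.6 CPM in pool 1 to 72.4 CPM in pool 3. The connexin gene Gjd3 rose by 5.47 ± 0.44 (4.40 to 6.42 over the alternatives). The serine protease gene Prss23 was at 243, 270 and 234 CPM against 9.54, 10.3 and 7.21 CPM and rose by 4.74 ± 0.17. The genes A830019P07Rik and Gm16685, the cytokine gene Il7 and 4 genes of the HoxD cluster also stood among the 15.

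The largest falls rested on few lymphatic UMIs. Trpc5, a cation channel gene, had 2 UMIs in lymphatic nuclei and 750 in other endothelial nuclei, a level 29.0-fold lower (exact 95% counting interval 8.005 to 240). Adh1, an alcohol dehydrogenase gene, had 3 and 745 UMIs, a level 19.2-fold lower (6.55 to 93.4). Gkn3, known from arterial endothelium, was at 9.47, 8.99 and 5.57 CPM against 94.1, 100.2 and 51.9 CPM and fell by 3.39 ± 0.29 on the log2 scale (adjusted p 3.28e-07), with changes from -4.03 to -2.64 over the alternatives. The axon guidance gene Ntng1 fell by 3.33 ± 0.47 (-5.16 to -2.89 over the alternatives), and all values of both genes in lymphatic nuclei lay below all others.

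**Figure D4:**
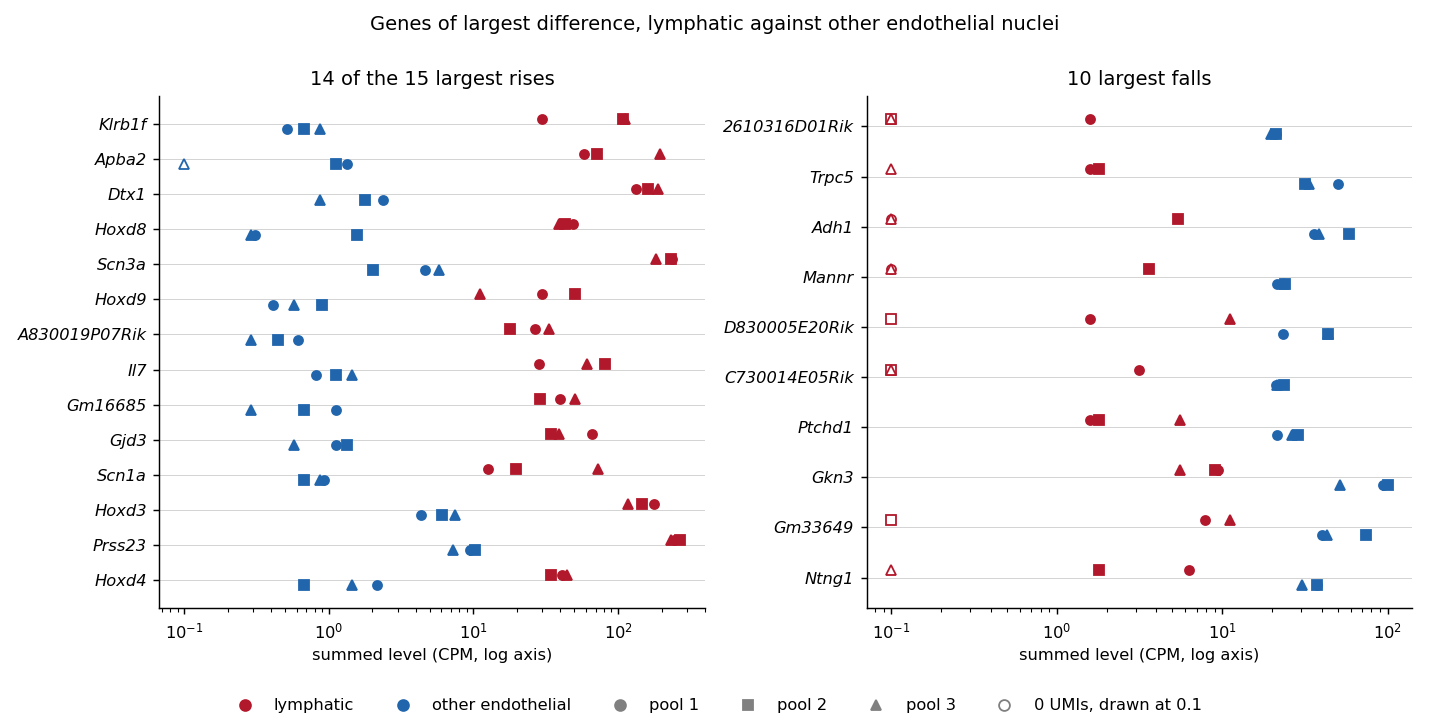
Summed level in CPM, on a log axis, of 14 of the 15 genes with the largest rise and the 10 with the largest fall in lymphatic against other endothelial nuclei; colours are classes, shapes are pools and open symbols mark 0 UMIs. For every gene shown, the 3 lymphatic values lie on one side of the 3 other endothelial values. The rule that chose the genes required the same direction in 3 of 3 pools, so this separation was largely set by it.

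Hox genes are expressed by body level along the trunk, and they lie in 4 clusters. HoxD genes made up 4 of the 15 largest rises: Hoxd8, Hoxd9, Hoxd3 and Hoxd4. The other clusters were then examined after these values were seen. Summed over the 9 listed HoxD genes, lymphatic nuclei of pools 1, 2 and 3 were at 302, 286 and 212 CPM and other endothelial nuclei at 7.38, 9.17 and 9.80 CPM. The sum was 6.402 CPM ± 4.08 in valve endothelial, 3.67 ± 2.30 in smooth muscle and 0.426 ± 0.537 in cardiomyocyte nuclei. The lowest lymphatic pool thus lay far above the highest pool of these 4 classes. The remaining kept nuclei, in none of these classes, were not summed for Hox genes.

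The HoxA and HoxB clusters did not follow this pattern. The HoxA sum was 28.8 CPM ± 2.44 in lymphatic nuclei and 41.4 ± 7.46 in other endothelial nuclei, and of the 5 classes summed it was highest, at 66.7 ± 5.78, in smooth muscle nuclei. The HoxB sum was 28.7 CPM ± 16.1 against 26.2 ± 4.66, and HoxC genes had no UMI in lymphatic nuclei, of 1368733 UMIs in all. The 4 tested genes of these clusters, Hoxa3, Hoxa5, Hoxb3 and Hoxb4, did not pass, with log2 fold changes of -0.22 ± 0.33, -0.14 ± 0.61, 0.57 ± 0.34 and -0.49 ± 0.61.

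Within HoxD, Hoxd3 was at 178, 148 and 117 CPM in lymphatic nuclei against 4.31, 6.04 and 7.50 CPM, a log2 fold change of 4.77 ± 0.25 (adjusted p 1.03e-09), and was detected in 92 of the 138 nuclei. Hoxd4 was at 41.1, 34.2 and 44.6 CPM against 2.15, 0.671 and 1.44 CPM, a change of 4.67 ± 0.43. Their transcripts overlap, so reads of the pair, and of the antisense gene Hoxd3os1, may be split wrongly between them. Hoxd8 was at 48.9, 43.2 and 39.0 CPM against 0.308, 1.57 and 0.288 CPM, with a change of 6.0 ± 0.51 (adjusted p 3.32e-07), a range of 5.22 to 7.08 over the alternatives and UMIs in 38 nuclei. Hoxd9 varied more, at 30.0, 50.4 and 11.1 CPM, and Hoxd10 had 8 UMIs in 7 nuclei.

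**Figure D5:**
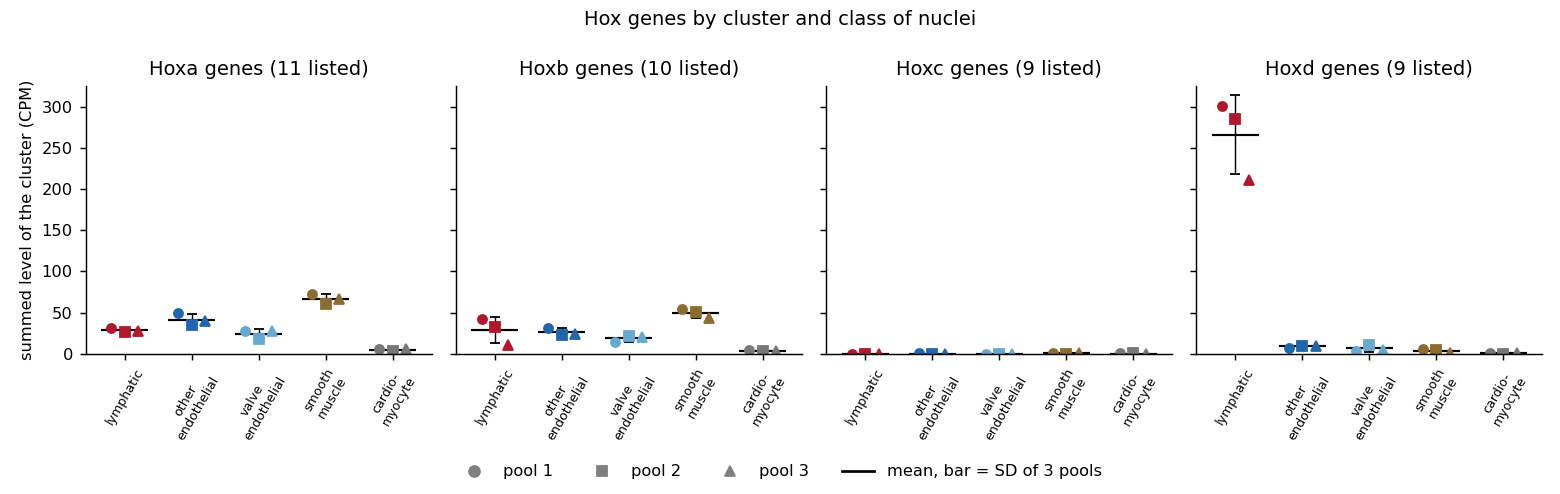
Summed level in CPM of all listed genes of each Hox cluster by class of nuclei; points are pools, lines are means and bars are the SD of 3 pools. HoxD sums of 212 to 302 CPM stand out in lymphatic nuclei, whereas HoxA and HoxB sums are highest in smooth muscle nuclei among the 5 classes shown.

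The windows before 6 of the 15 genes are printed: all those found that overlap no annotated exon, before genes that changed together. Each is the 250 bases upstream of a RefSeq start on GRCm38.p6, given 5′ to 3′ on the gene's strand, with positions of that build and not of the build used for the counts. Capitals mark matches, on either strand, to GGAAG, 1 form of the ETS motif of factors active in endothelium. Other forms, such as GGAA followed by another base, were not searched or marked. A830019P07Rik and Prss23 lie on the minus strand and the others on the plus strand, and Prss23 and Apba2 have further starts whose windows overlap exons.
Klrb1f, chr6:129045651-129045900: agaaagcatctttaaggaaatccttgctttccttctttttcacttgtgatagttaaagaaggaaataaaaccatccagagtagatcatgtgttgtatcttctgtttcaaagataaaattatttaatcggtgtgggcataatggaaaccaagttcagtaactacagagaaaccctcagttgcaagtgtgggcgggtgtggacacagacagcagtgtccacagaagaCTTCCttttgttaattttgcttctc
Apba2, chr7:64501456-64501705: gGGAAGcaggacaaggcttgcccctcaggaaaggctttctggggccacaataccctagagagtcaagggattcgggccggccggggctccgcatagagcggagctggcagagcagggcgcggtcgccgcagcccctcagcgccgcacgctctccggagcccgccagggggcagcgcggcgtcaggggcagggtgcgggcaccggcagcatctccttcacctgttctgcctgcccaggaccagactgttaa
A830019P07Rik, chr19:35924579-35924828: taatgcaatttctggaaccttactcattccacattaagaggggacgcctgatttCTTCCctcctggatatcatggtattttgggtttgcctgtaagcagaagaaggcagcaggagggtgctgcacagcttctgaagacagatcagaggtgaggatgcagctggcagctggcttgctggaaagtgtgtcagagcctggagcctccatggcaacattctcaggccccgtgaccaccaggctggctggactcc
Prss23, chr7:89527188-89527437: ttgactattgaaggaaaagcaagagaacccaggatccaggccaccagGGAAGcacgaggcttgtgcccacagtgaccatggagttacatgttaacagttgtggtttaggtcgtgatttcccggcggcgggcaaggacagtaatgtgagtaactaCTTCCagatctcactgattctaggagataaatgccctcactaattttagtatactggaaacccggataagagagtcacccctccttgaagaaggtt
Hoxd8, chr2:74704365-74704614: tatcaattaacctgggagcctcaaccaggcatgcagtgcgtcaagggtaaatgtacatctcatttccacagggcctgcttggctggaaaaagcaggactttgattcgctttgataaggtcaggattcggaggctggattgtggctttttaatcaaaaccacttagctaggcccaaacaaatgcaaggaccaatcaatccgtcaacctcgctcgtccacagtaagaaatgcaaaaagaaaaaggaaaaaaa
Hoxd4, chr2:74721728-74721977: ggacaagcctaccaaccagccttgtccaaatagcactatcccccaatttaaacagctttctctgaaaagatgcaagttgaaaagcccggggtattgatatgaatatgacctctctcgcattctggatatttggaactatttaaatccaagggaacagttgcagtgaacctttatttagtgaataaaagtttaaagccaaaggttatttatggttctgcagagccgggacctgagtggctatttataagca
The windows of Klrb1f, Apba2 and A830019P07Rik held 1 match each to GGAAG, that of Prss23 held 2 and those of Hoxd8 and Hoxd4 none. Of 32851 windows of the same length, 64.1% held at least 1. The SOX motif AACAAT, searched in the same way, was in none of the 6 and in 9.42% of all windows. RefSeq windows were found for 10 of the 15 genes.

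Valve endothelial nuclei, 216 with at least 2 of Kcnc2, Wnt9b, Wnt4 and Pthlh and at least 4 pan-endothelial genes detected and not in the lymphatic class, were compared because heart valve endothelium is known to share Prox1 with lymphatics. Of these nuclei, 175 were also among the other endothelial nuclei above. In pool 3, 9 of the 54 held more than 30000 UMIs and gave 86.3% of the summed UMIs, with 348249 UMIs in the largest. With all nuclei, 265 of 8790 genes were higher in lymphatic nuclei (3.01% of those tested) and 209 lower (2.38%). Without nuclei above 30000 UMIs, 541 were higher and 602 lower, and without pool 3 the counts were 523 and 565. Leaving out pool 1 or pool 2 brought the count in both directions to 114 and 115. Of the 69 listed or named genes called, 65 also passed without nuclei above 30000 UMIs, and 33 passed without pool 1 and 33 without pool 2.

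Unlike the lymphatic class, the valve class had no limit on cardiomyocyte UMIs. The valve class of pool 3 stood apart in its markers. Its cardiomyocyte markers, a list with the 4 genes of the rule, summed to 16286 CPM. They summed to 5246 and 3703 CPM in pools 1 and 2 and to 2002 to 2419 CPM in lymphatic nuclei. Its pan-endothelial genes summed to 2053 CPM, against 5084 and 5253 CPM in pools 1 and 2. Of 8 cardiomyocyte markers outside the rule 2 were lower in lymphatic nuclei (0 to 5 over the 12 alternatives), as was the 1 melanocyte marker tested, Mitf. The Mitf call was lost in 6 alternatives, among them without pool 1, without pool 2 and without nuclei above 30000 UMIs. None of 6 smooth muscle, 7 fibroblast, 5 valve interstitial, 3 pericyte, 3 mesothelial, 4 erythroid and 1 macrophage markers passed with edgeR or DESeq2, and 1 mesothelial and 2 erythroid markers were higher at an unadjusted p under 0.05. When nuclei above 30000 UMIs were left out, 2 smooth muscle, 2 fibroblast, 2 pericyte and 2 erythroid markers were higher. When pool 3 was left out, 4 of 4 mesothelial, 3 fibroblast, 2 smooth muscle, 2 erythroid, 1 pericyte, 1 macrophage and 1 valve interstitial markers were higher. The part of these markers in the valve comparison was not tested.

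Prox1 stood at 848, 828 and 1114 CPM in lymphatic nuclei and at 128 CPM ± 24.6 in valve endothelial nuclei, a description of a gene of the rule. Tbx1 was at 3.27, 5.51 and 0 CPM in the valve endothelial nuclei, far below its lymphatic values, with a log2 fold change of 4.95 ± 0.60 (adjusted p 0.00211) and a range of 4.13 to 6.19 over the 12 alternatives. Only 7 Tbx1 UMIs were counted in the valve class. Nr2f2 was at 83.5, 108 and 46.4 CPM in valve endothelial nuclei and rose by 1.73 ± 0.23 in the lymphatic ones, a call lost without pool 1 (adjusted p 0.0646). Nfatc1, by contrast, was at 269, 270 and 85.7 CPM, and its log2 fold change of 0.74 ± 0.33 did not pass (adjusted p 0.327), nor did that of 0.35 without nuclei above 30000 UMIs (adjusted p 0.141). A p above the threshold does not show that Nfatc1 was equal in both classes.

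Most surface genes of the lymphatic list also differed from valve endothelium, with 11 of 16 tested higher, none lower by edgeR and 5 not passing. Without nuclei above 30000 UMIs 11 were higher and 2 lower, and without pool 3 12 of 17 were higher and 2 lower. In 11 of the 16 the lymphatic pools lay entirely above the valve endothelial pools, against 10.4% of all tested genes. Endocardial and shear genes lay entirely below in 6 of 16, against 7.21%, and 7 of the 16 passed as lower. That number was 3 without pool 1, 2 without pool 2, 10 without pool 3 and 13 without nuclei above 30000 UMIs. The guidance ligand Sema3d had a log2 fold change of 3.17, Lbp one of 3.81 and Fgl2 one of 3.87, and these were 3.61, 3.68 and 4.65 without nuclei above 30000 UMIs. Klrb1f had no UMI in valve endothelial nuclei, against 99 in lymphatic nuclei. With 3 UMIs per pool as the floor it was at least 12.2-fold, 19.6-fold and 68.0-fold higher in pools 1, 2 and 3. The bound of pool 3 rests on a valve sum of which 9 nuclei above 30000 UMIs gave 86.3%. Hoxd3 rose by 6.01, Dtx1 by 4.93, Apba2 by 6.23, Hoxd8 by 4.90 and Tc2n by 4.87 on the log2 scale. The same direction in 3 of 3 pools was a condition of the rule that chose these genes. Over the 12 alternatives these changes ranged from 5.46 to 9.52 for Hoxd3, 4.49 to 5.50 for Dtx1, 5.01 to 8.51 for Apba2, 4.20 to 6.51 for Hoxd8 and 4.39 to 6.90 for Tc2n. Hoxd3, Apba2 and Hoxd8 had only 8, 5 and 4 UMIs in the valve class. Hoxd8 did not pass without pool 1 (adjusted p 0.145).

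Some genes set lymphatic nuclei apart from other endothelial nuclei but did not pass against the valve class. Nts, the gene of neurotensin, had a log2 fold change of 1.76 ± 0.18 in the first comparison and of -0.36 in the second (adjusted p 0.486). Cldn11 had changes of 3.01 and 0.92, the latter with an adjusted p of 0.229. The difference between the 2 comparisons, which share the lymphatic sums, was not tested. Genes lower in lymphatic than in valve endothelial nuclei included the protease gene Adamts8, at 4.74, 8.99 and 0 CPM against 151, 305 and 42.6 CPM, with a log2 fold change of -5.09 ± 0.33 (adjusted p 0.000133). Fam155a, Hecw1 and Ly6a had changes of -4.69, -4.23 and -4.13. Without nuclei above 30000 UMIs the changes of Adamts8, Fam155a, Hecw1 and Ly6a were -6.79, -6.58, -5.06 and -6.03. Ly6a did not pass without pool 2 (adjusted p 0.0503) or without the pool block (adjusted p 0.0649). D830005E20Rik had 3 UMIs in lymphatic and 534 in valve endothelial nuclei, at 1.58, 0 and 11.1 CPM against 75.3, 66.1 and 222 CPM.

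Genes of the cell cycle did not pass in either direction, 0 of 12 tested with edgeR, with a median log2 fold change of 0.10. Over all tested genes only 6.01% were higher and 6.03% lower, so 0 of 12 says little about these genes. Only Kif15, a spindle motor gene, had an unadjusted p under 0.05 (0.0198), and DESeq2 called 0 of the 12. Without pool 1, 2 of the 12 were higher, and 1 was higher when members needed at least 4 lymphatic genes. After thinning, 2 of 56, 4 of 52 and 3 of 30 lymphatic nuclei had at least 2 UMIs over these 12 genes. The mean share was 7.09% ± 3.26 (SD, n = 3) in lymphatic and 5.44% ± 1.68 in other endothelial nuclei, a difference of 1.65 percentage points. In pools 1, 2 and 3 the share was 3.57%, 7.69% and 10% in lymphatic nuclei against 6.37%, 3.50% and 6.45%. It was thus lower in pool 1 and higher in pools 2 and 3. An exact 2-sided permutation test over the pools gave p = 0.4. That test took the 2 classes as independent, although they came from the same 3 pools. With 3 against 3 it cannot go below 0.1, so it could not have passed 0.05.

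Markers of other cell types were measured in the same fit. Of 7 fibroblast markers tested 3 were higher in lymphatic nuclei (Pdgfra, Col1a1 and Abca8a), and their summed list level was 1666 to 3936 CPM against 1667 to 2568 CPM. Over the 17 alternatives 0 to 4 of the 7 were higher, with none without pool 2. Without nuclei above 30000 UMIs, Col1a1 had a log2 fold change of 0.09 and Abca8a one of 0.40, and neither passed. None of 6 smooth muscle, 7 macrophage, 4 pericyte, 5 erythroid, 1 Schwann and neuron and 3 melanocyte markers tested passed in either direction with edgeR, nor with DESeq2. At an unadjusted p under 0.05, 1 smooth muscle and 3 erythroid markers were higher and none of the others had such a p. Other settings did call some: all 5 erythroid markers were higher without pool 1 and without the count filter, 4 were higher with 5 classes in the fit, and 1 was lower without pool 3. A melanocyte marker was lower without pool 1, without pool 3, without the mitochondrial limit and without the count filter. Of the smooth muscle markers, 1 was higher without nuclei above 30000 UMIs and 1 was lower with comparison nuclei matched on UMI total. Of the macrophage markers, 1 was higher without the highest doublet scores. The summed smooth muscle level was 501 to 873 CPM in lymphatic and 501 to 779 CPM in other endothelial nuclei. The macrophage list was at 61.3 to 106 CPM, with 1 of its 8 markers, Cd163, at 0 in lymphatic nuclei. Valve endothelial markers were lower in 3 of 4 (1 to 4 over the alternatives) and valve interstitial markers higher in 2 of 7 (1 to 3). Cardiomyocyte markers outside the rule were lower in 4 of 8, but members were limited in cardiomyocyte UMIs and the comparison nuclei were not. With comparison nuclei under the same limit, Actn2, Ctnna3, Pln and Rbm20 had log2 fold changes of 0.11, 0.16, 0.34 and 0.59, and none passed. Of 5 mesothelial markers 1, Lrrn4, was higher. The number higher ran from 0 to 3 over the 17 alternatives, among them 0 without pool 1 and without pool 2 and 3 without pool 3. Without nuclei above 30000 UMIs 3 could be tested, not Lrrn4, and 2 were lower. The summed mesothelial level was 33.4 to 336 CPM against 74.1 to 118 CPM, and the erythroid level was 238 to 20478 CPM against 330 to 488 CPM, with the highest value in pool 3. Valve interstitial markers summed to 381 to 774 CPM against 291 to 384 CPM. The part of RNA from other cells in the results was not tested.

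The EGFP transcript of the strain had 3, 1 and 0 UMIs in lymphatic nuclei of the 3 pools, and all 4 nuclei with a UMI had a median depth of 33531.5 UMIs. These counts were 4.74, 1.80 and 0 CPM, against 12.2, 10.96 and 9.23 CPM in other endothelial nuclei. The lymphatic values were lower in every pool, but 4 UMIs were too few for the gene to enter the test, and in pool 3 a count of 0 allows up to 16.7 CPM. Scx had no UMI in lymphatic nuclei, where 3 UMIs would have been 4.74, 5.40 and 16.7 CPM.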

How the data were processed

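Nuclei of 3 pools of aortic valve structures were sequenced with the 10x Multiome kit, and only the gene expression counts were used. The authors deposited whole-number UMI counts per gene and nucleus, and the version in the matrix files, per the file headers, is Cell Ranger 7.1.0. Processing notes of the submitters name Cell Ranger 7.0.1 and 7.1.0 and the build GRCm39, and the annotation and strand setting are not given in the sources used here. The 3 matrices held 21140 nuclei and 96513814 UMIs, with 36167 features. The labels do not tie a pool to single animals, so p-values measure only the spread between these pools.

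Counts were summed per pool and class and tested with edgeR 4.0.16 (quasi-likelihood, TMM, filterByExpr with a minimum count of 10, Benjamini-Hochberg adjustment, R 4.3.3). Pool was a block because classes of a pool share a library; deviations of the classes from their means correlated at 0.25, 0.449 and 0.354 in the 3 pools against other endothelial nuclei and at 0.0533, 0.336 and 0.173 against valve endothelial nuclei. The 20 genes of the rules, with near copies of Ccl21a, were left out of the first test and 24 of the valve test. The members, the gene lists and the rules were chosen with earlier results of these data known. Named genes were those of the lists and, beyond them, the 15 largest rises and 10 largest falls (8 and 5 against valve endothelium) among genes with an adjusted p under 0.05, the same direction in 3 of 3 pools and at least 20 CPM in the higher class.

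Doublets were not removed: the automatic threshold of Scrublet (scanpy 1.11.5) marked 0 nuclei in each pool, and leaving out the highest scores was an alternative. Other alternatives were DESeq2 1.42.0, other scaling, filters and limits, matching on depth, and leaving out each pool. On simulated data, 98.5% of 4-fold changes and 19% of 2-fold changes were recovered against other endothelial nuclei. Intervals on shares cover counting error only. Of the genes the rule names, some are not reported here.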

Additional observations from a re-analysis of the deposited data

How the results depend on the processing

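Against other endothelial nuclei, 1529 genes passed in both directions together. This became 928 with DESeq2 and ranged from 690 to 1510 when a pool was left out, lowest without pool 2, where 676 of the 1529 were called again. Without the pool block the count was 1040, and without nuclei above 30000 UMIs, an alternative chosen after seeing the data, it was 1732, with 1419 of the 1529 called again. Without the block, calls also fell from 2 higher to 0 in the angiopoietin list, from 2 lower to 0 among lymphatic valve genes, from 4 lower to 2 among junction genes, and from 3 to 1 for both the fibroblast and the valve endothelial markers. Against valve endothelial nuclei, 474 genes passed. The count was 228 without the pool block (3 of the endocardial genes lower, against 7), 968 without the filter on low counts, 114 to 1088 when a pool was left out and 1143 without nuclei above 30000 UMIs, with 448 of the 474 called again. The share of cycling nuclei was 23.6% in lymphatic and 16.9% in other endothelial nuclei without thinning, and 14.9% and 12.9% at 1 UMI. Signs turned for few markers: with comparison nuclei under 0.5% cardiomyocyte UMIs, Actn2 was at 0.11, Ctnna3 at 0.16, Pln at 0.34 and Rbm20 at 0.59 on the log2 scale. Col1a1 was at -0.016 without the highest Scrublet scores, Hba-a1 ranged from -0.62 without pool 3 to 2.91 without pool 1, and Msln at -2.78 and Muc16 at -2.54 without nuclei above 30000 UMIs. In the valve comparison, Abcc9 was at 1.10 and Npr3 at -0.83 without those nuclei. The cause of these shifts was not tested. With 179514 lymphatic UMIs in pool 3, a gene under 16.7 CPM there rests on fewer than 3 UMIs.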
